A study of Homo sapiens with 10 samples.

Results

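The core pluripotency genes are 10 genes whose products hold human embryonic stem cells in an undifferentiated, self-renewing state: POU5F1, SOX2, NANOG, LIN28A, LIN28B, SALL4, PRDM14, ZFP42, DPPA4 and UTF1. They were taken by name from the table of single libraries, in which all 10 were present among 13808 genes and 14785 rows, the other 977 rows being mostly subfamilies of transposable elements. The list was set with earlier results of these data known, and no member was lost to a filter. RNA was measured in H1 cells, an established human embryonic stem cell line labelled wild type in every group and grown in mTeSR1 on Matrigel. A short hairpin RNA (shRNA) was delivered by virus packaged in 293T cells, and puromycin then selected the cells that carried it. The control hairpin targets luciferase (shLUC), which human cells lack. The other hairpins target SMARCA4 (the ATPase of the BAF chromatin remodelling complex, also called BRG1), MAFK (a small MAF basic leucine zipper factor), E2F6 (a repressive member of the E2F family) or KDM1A (the histone demethylase LSD1). Each of the 5 groups had 2 libraries, which the series calls biological duplicates. The labels give no hairpin sequence, no number of hairpins per gene and no time of harvest, so a group stands for 1 knockdown whose off-target effects were not tested.

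In embryonic stem cells OCT4 (the product of POU5F1) and SOX2 bind DNA side by side on a composite octamer and SOX element, and with NANOG they activate their own genes and each other's. LIN28A and LIN28B bind precursors of the let-7 microRNAs and block their maturation, and let-7 in turn represses the LIN28 mRNAs through sites in their 3′ untranslated regions. SALL4, PRDM14 and ZFP42 are zinc finger proteins of the same network, and DPPA4 and UTF1 are chromatin-associated proteins found mainly in pluripotent and germ cells.

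Letters of the octamer and SOX element were searched just upstream of the genes, and the windows are shown for the 2 members that held the octamer letters. Each window is the 250 bases before the RefSeq start on GRCh38.p14, plus strand, with octamer letters (ATGCAAA) and SOX letters (CATTGT), on either strand, in capitals. The NANOG window spans chr12:7789152-7789401, within an intron of a longer GENCODE transcript except for its last bases, where the first exon of the main transcript begins. The SOX2 window spans chr3:181711675-181711924 and ends at the first base of the SOX2 exon.
NANOG: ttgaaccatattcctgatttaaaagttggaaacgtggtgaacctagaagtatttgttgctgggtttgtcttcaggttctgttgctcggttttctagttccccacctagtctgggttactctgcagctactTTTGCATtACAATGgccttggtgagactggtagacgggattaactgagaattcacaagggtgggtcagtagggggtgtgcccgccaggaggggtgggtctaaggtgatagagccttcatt
SOX2: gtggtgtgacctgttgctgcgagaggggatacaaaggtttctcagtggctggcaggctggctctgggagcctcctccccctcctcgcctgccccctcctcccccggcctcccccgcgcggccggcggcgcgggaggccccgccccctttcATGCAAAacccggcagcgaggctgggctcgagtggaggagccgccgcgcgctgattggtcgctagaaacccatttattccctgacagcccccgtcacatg
In NANOG the octamer letters (bases -120 to -114 from the start) and the SOX letters (bases -112 to -107), both on the minus strand, stood 1 base apart. In SOX2 only the octamer letters were found, at bases -100 to -94. The RefSeq promoter table held 7 windows for 6 members (SOX2, NANOG, ZFP42, DPPA4, UTF1 and 2 for LIN28B). Octamer letters were in 2 of these 7, against 3.94% of 34788 promoters of the same length, and SOX letters in 2 of 7 (NANOG and 1 LIN28B window), against 9.29%. Letters bound by the factors knocked down or their relatives were in 0 of the 7 windows: TGANTCA, the AP-1 core at the centre of the MAF element (6.59% of all promoters), and the E2F letters GGCGGGA (13.5%) and TTCGCGC (1.84%). The ETS letters CGGAAG were in 0 of 7 as well, against 16.5%. Such matches are letters in a window and not measured binding.

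The let-7 circuit is shown by the seed of the microRNA and the letters it pairs with. Capitals mark bases 2 to 8 of hsa-let-7a-5p, shared by all 9 let-7 family members matched in RefSeq (miR-98 among them), and the complementary CTACCTC in the 3′ untranslated region of each LIN28 mRNA (GENCODE 29, GRCh38, plus strand). LIN28A held 1 such site, at chr1:26427351-26427373, and LIN28B held 4, of which the one at chr6:105078815-105078837 is printed.
hsa-let-7a-5p: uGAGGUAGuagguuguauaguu
LIN28A site: cagcctattgaaCTACCTCattt
LIN28B site: cggttgcaaagtCTACCTCatgc
Mature microRNAs were not measured in these libraries.

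Values are the authors' normalized tag counts, whole numbers whose totals were nearly equal in all libraries (22836548 to 22855295, median 594), so read depth is unknown. Above 15000 the values lie on steps of 10 rows, whose values are equal or differ by at most 8 (41804 to 41812). POU5F1, LIN28A and most DPPA4 values are on these coarse steps, so that 2 equal values mean the same step and not 0 biological spread. A change of step at the very top (61943 to 148866) is 1.27 on the log2 scale. Lower values were shared between rows as well, such as 6928 (SOX2 in shLUC) by 7 rows and 2910 (SALL4 in shSMARCA4) by 10. The shKDM1A libraries differed most from each other (replicate SD over all rows 0.530 on the log2 scale, against 0.264 to 0.335 in the other groups). Among the targeted genes, SMARCA4 fell from a mean of 8230 in shLUC to 1042 in shSMARCA4 (limma adjusted p = 8.555e-05). KDM1A was 2584 against 6134 in its own knockdown (adjusted p = 0.132), E2F6 320 against 522 (0.774) and MAFK 149 against 250 (0.572), so that the depletion of these 3 did not pass the test. MAFK was 82 and 216 in shMAFK against 212 and 288 in shLUC, so the shMAFK library at 216 lay within the control range, and each shMAFK result rests in part on it.

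All 10 genes were expressed in every library. Per kilobase of exon (the mean of 10 libraries divided by the length of the gene's merged GENCODE exons), POU5F1 was highest at 15462, above 99.9% of genes. LIN28A followed at 10128, DPPA4 at 4065, SOX2 at 2454 and ZFP42 at 1953, each above at least 97.7% of genes. UTF1 was at 924, SALL4 at 649, LIN28B at 532, NANOG at 502 and PRDM14 at 300.1, the last above 77.1% of genes. In the shLUC libraries alone the order was the same. There UTF1 with SALL4 (658 and 642), SALL4 with LIN28B (541), and LIN28B with NANOG (478) had overlapping libraries, while the other neighbours did not. No member was near 0 in any group, so these levels do not go against the label of a pluripotent cell.

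**Figure D1:**
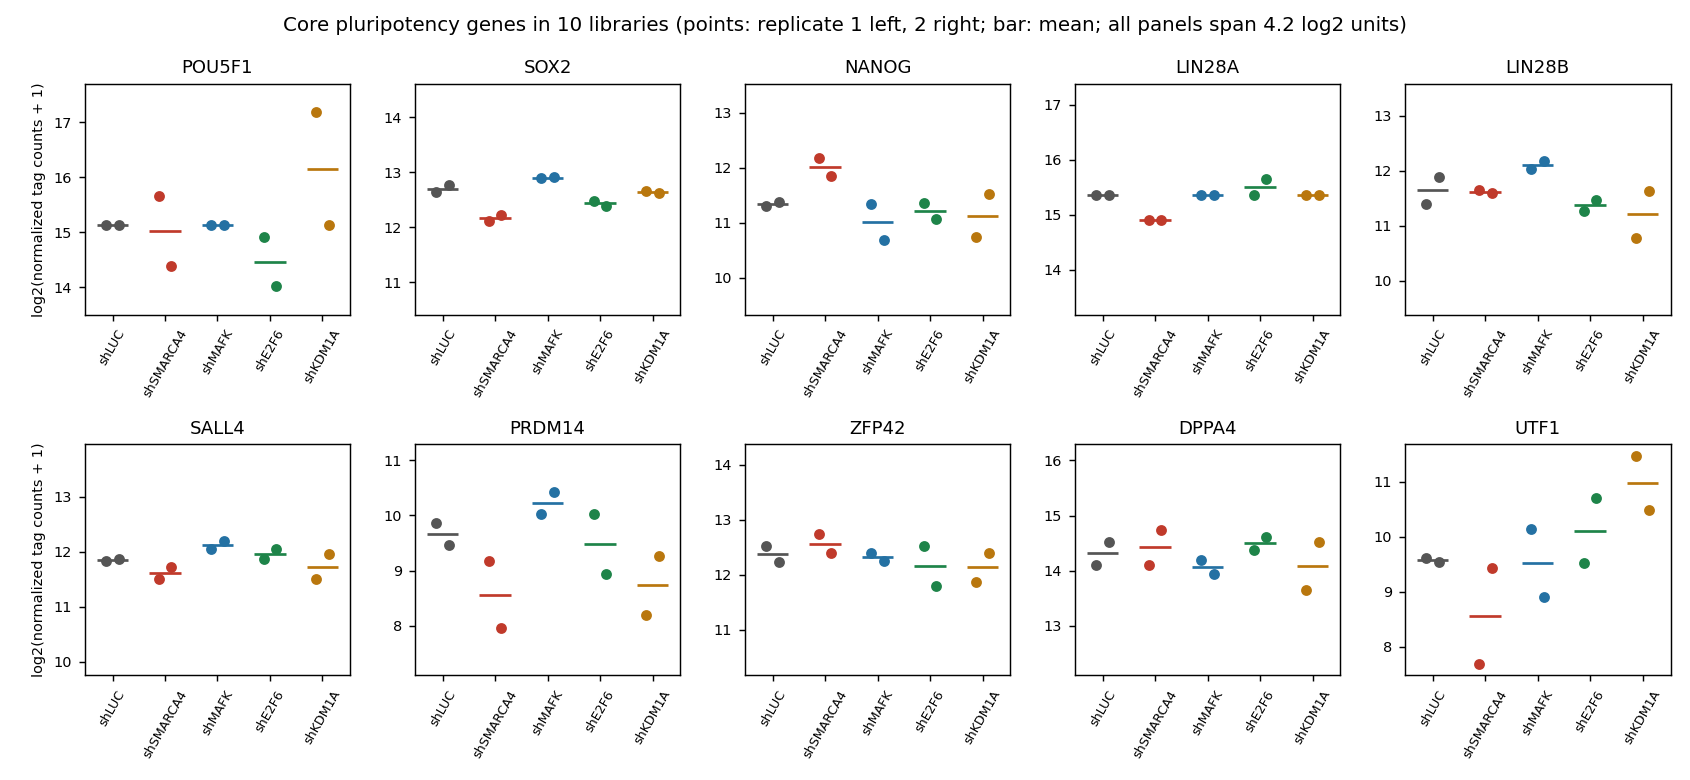
Each panel shows 1 gene as log2(normalized tag counts + 1) in the 5 groups, with replicate 1 on the left, replicate 2 on the right and a bar at the mean of 2 libraries; all panels span the same log2 width. SOX2 and LIN28A sit lowest in shSMARCA4, NANOG sits highest there, and POU5F1 in shKDM1A has 1 library at 148866 and 1 at 35710.

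Over the 10 libraries the members differed widely in how steady they were. SALL4 (1.62-fold from the lowest to the highest library), LIN28A (1.68), SOX2 (1.74) and ZFP42 (1.91) stayed within a 2-fold range or less, and DPPA4 (2.13), LIN28B (2.64) and NANOG (2.81) within a 3-fold range. PRDM14 spanned 5.63-fold, POU5F1 8.96-fold and UTF1 13.9-fold, and for these 3 the replicates of 1 group could lie far apart.

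POU5F1 (ENSG00000204531, chr6:31164337-31180731, minus strand, overlapping TCF19 and PSORS1C3) encodes OCT4, the POU homeodomain factor without which the pluripotent state is lost. It was at 35710 in both shLUC libraries and at the same value in both shMAFK libraries. In shSMARCA4 it was 51684 and 21308, on either side of the control. In shE2F6 it was 30768 and 16615, both below the control, a log2 difference of -0.66 (SE 0.61, limma adjusted p = 1). In shKDM1A it was 148866 and 35710, which put it among the 10 highest rows in 1 library and at the control step in the other. The log2 difference of 1.03 (SE 0.61, adjusted p = 0.507) was 2.06 without replicate 2 and 0 without replicate 1, so that 1 library decides it. The log2 replicate spread of POU5F1 gave a 95% interval of -1.49 to 1.28 around the shSMARCA4 difference of -0.11, which includes differences of more than 2-fold either way.

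**Figure D2:**
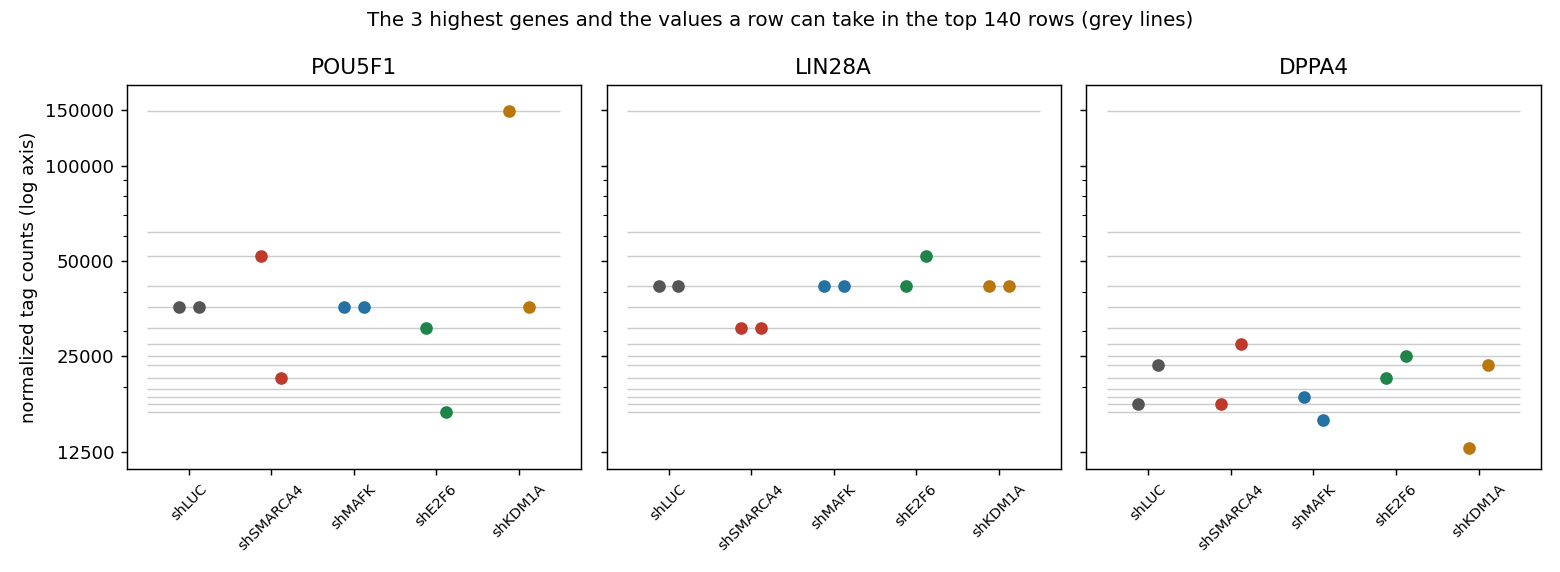
Normalized tag counts (log axis) of the 3 highest members, with 1 point per library and grey lines at the values that the top 140 rows can take. POU5F1 moves over many steps, up to 148866 in 1 shKDM1A library and down to 16615 in 1 shE2F6 library, while LIN28A keeps the 41812 step except in both shSMARCA4 libraries (30774) and 1 shE2F6 library (51691).

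SOX2 (ENSG00000181449, chr3:181711924-181714436, plus strand, inside SOX2-OT) encodes the HMG box partner of OCT4. Its replicates were close in every group. It was 6408 and 6928 in shLUC, 4426 and 4748 in shSMARCA4, and 7576 and 7680 in shMAFK. It was 5706 and 5367 in shE2F6 and 6490 and 6343 in shKDM1A. The shSMARCA4 libraries were the lowest 2 of the 10 and the shMAFK libraries the highest 2. Against shLUC the shSMARCA4 difference was -0.54 (SE 0.13, 95% interval -0.83 to -0.25), with an unadjusted p of 0.0024 and a limma adjusted p of 0.0552, which missed the threshold of 0.05. The shMAFK difference was 0.20 (adjusted p = 0.782), the shE2F6 difference -0.27 (0.987) and the shKDM1A difference -0.05 (0.873).

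NANOG (ENSG00000111704, chr12:7787794-7799141, plus strand) encodes a homeodomain factor that guards against differentiation. It was 2512 and 2639 in shLUC and 4613 and 3699 in shSMARCA4, both above every other library. It stood at 2576 and 1640 in shMAFK, at 1704 and 2923 in shKDM1A, and at 2628 and 2148 in shE2F6, each overlapping the control or spanning it. The shSMARCA4 difference was 0.68 (SE 0.29, 95% interval 0.03 to 1.34), opposite in sign to that of SOX2 in the same libraries, with an unadjusted p of 0.0431 and a limma adjusted p of 0.284. The shMAFK difference was -0.33, the shE2F6 difference -0.12 and the shKDM1A difference -0.21, with adjusted p from 0.769 to 1.

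Reads of near-identical copies could be shared with these genes. POU5F1B, a copy of POU5F1, was at 170 and 188 in shLUC and 440 and 191 in shKDM1A, and so stood high in the same shKDM1A library as POU5F1. NANOGP8, a retrocopy of NANOG, was at 105 and 112 in shLUC, 186 and 114 in shSMARCA4, and 64 and 146 in shKDM1A. How the counting treated reads that match both copies is not given in the sources used here. NANOGP1 and SOX2-OT were not analysed here.

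In shSMARCA4 against shLUC, 4.18% of all rows passed an adjusted p of 0.05. Among 12 measured paralogs of the SOX, POU, YY and NANOG families, 1 fell in shSMARCA4 and 0 rose. It was POU3F1, a neural POU factor that binds the same octamer, with a mean of 384.5 against 881.5 (log2 difference -1.25, limma adjusted p = 0.034). SOX21, a SOX2 relative of the SOXB2 group, was 454 and 392 in shLUC. It was below both in shE2F6 (110 and 59, -2.37, limma adjusted p = 0.239), shKDM1A (168 and 102, -1.68, 0.172) and shSMARCA4 (156 and 230, -1.15, 0.1135). In shMAFK it was above both (728 and 912, 0.95, 0.445). None of these differences passed.

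LIN28A (ENSG00000131914, chr1:26410778-26429722, plus strand) was at 41812 in both shLUC, both shMAFK and both shKDM1A libraries. It was at 30774 in both shSMARCA4 libraries, 2 steps lower, and at 41812 and 51691 in shE2F6. The shSMARCA4 libraries were thus the lowest 2 of the 10. The shSMARCA4 difference was -0.44 (SE 0.12, 95% interval -0.71 to -0.18, unadjusted p = 0.00413), and its limma adjusted p of 0.0773 missed the threshold. Because the steps set the within-group SD to 0 in 4 of 5 groups, the spread used in this test came largely from rows of similar level.

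LIN28B (ENSG00000187772, chr6:104936616-105083332, plus strand, with LIN28B-AS1 on the other strand) is the paralog of LIN28A and binds the same precursors. It was 2701 and 3798 in shLUC and 3208 and 3093 in shSMARCA4, where the difference was -0.02 (95% interval -0.64 to 0.59, limma adjusted p = 0.985), an interval that includes the LIN28A difference. In shMAFK it was 4196 and 4646, above both control libraries (0.46, SE 0.27, limma adjusted p = 0.72). It was 2473 and 2842 in shE2F6 and 1760 and 3190 in shKDM1A. The shKDM1A difference of -0.43 (adjusted p = 0.52) was -0.86 without replicate 2 and -0.01 without replicate 1.

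Of 9 genes of microRNA maturation and let-7 turnover, 1 rose in shSMARCA4 and 0 fell, beside 4.18% of all rows that passed there. AGO1, an Argonaute that carries mature microRNAs, was 4392 and 4165 against 1662 and 1890 in shLUC (log2 difference 1.27, limma adjusted p = 0.0243). TUT4, which uridylates let-7 precursors bound by LIN28, differed by 0.18 (adjusted p = 0.834), and DIS3L2, the exonuclease that degrades them, by -0.07 (0.901). Of 16 known let-7 target genes, 2 fell in shSMARCA4 and 0 rose, beside the same 4.18% of all rows. IGF2BP3, an RNA-binding protein of fetal tissues, was 3698 and 4034 against 6143 and 7097 (-0.77, adjusted p = 0.0459). MYCN was 1330 and 1701 against 2493 and 2922 (-0.84, adjusted p = 0.0465). The list holds known targets and was not chosen by site. The 1 transcript searched per gene was that with the longest 3′ untranslated region. There 11 of the 16 held CTACCTC, with 1 site in IGF2BP3, 0 in MYCN and 0 in the 7421 bases of HMGA2. Other letters and other transcripts were not searched, so a 0 does not mean that a gene lacks let-7 sites. The median over the 16 targets was -0.04, beside 0.01 over all rows. HMGA1, an architectural chromatin protein, was at 61943 in both shLUC and 148866 in both shMAFK libraries, which is 1 step at the top of the table (1.27, adjusted p = 0.432).

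SALL4 (ENSG00000101115, chr20:51782331-51802520, minus strand) encodes a zinc finger protein that binds AT-rich DNA and recruits the NuRD deacetylase complex. It had the smallest ratio of highest to lowest library (LIN28A had the smallest log2 SD, 0.224 against 0.228). It was 3651 and 3755 in shLUC, 2910 and 3366 in shSMARCA4 and 4228 and 4704 in shMAFK. SALL4 stood at 3738 and 4261 in shE2F6 and at 2910 and 3966 in shKDM1A. The shSMARCA4 libraries lay below the control (-0.24, SE 0.18, limma adjusted p = 0.601) and the shMAFK libraries above it (0.27, adjusted p = 0.79). Its 95% interval in shSMARCA4, -0.65 to 0.17, excludes a 2-fold loss.

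Among the 16 SALL paralogs and NuRD subunits, 1 rose in shSMARCA4 and 0 fell, beside 4.18% of all rows that passed there. SALL3 was 2296 and 2474 against 903 and 1018 in shLUC (1.31, limma adjusted p = 0.00249). It was also 1983 and 2098 in shMAFK (1.09, adjusted p = 0.0998), 1384 and 1487 in shKDM1A (0.58, adjusted p = 0.265) and 1155 and 1041 in shE2F6 (0.19). These were above both control libraries in each case without passing the test. All of these comparisons share the same 2 shLUC libraries. SALL1 (-0.35) and SALL2 (-0.20) were not called, and neither was CHD4, the main NuRD ATPase (-0.25, adjusted p = 0.438). The list's median was -0.08.

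PRDM14 (ENSG00000147596, chr8:70051651-70071693, minus strand) encodes a PR domain protein that represses differentiation genes. It was the lowest member per kilobase and among the least steady. It was 930 and 706 in shLUC, 575 and 246 in shSMARCA4 and 1048 and 1384 in shMAFK. PRDM14 stood at 1044 and 492 in shE2F6 and at 291 and 616 in shKDM1A. Both shSMARCA4 and both shKDM1A libraries lay below both control libraries, and both shMAFK libraries above. The differences were -1.11 in shSMARCA4 (SE 0.50, unadjusted p = 0.0521, limma adjusted p = 0.311), -0.94 in shKDM1A (adjusted p = 0.476) and 0.57 in shMAFK (adjusted p = 0.87). Replicates within shSMARCA4, shE2F6 and shKDM1A differed from each other by about 2-fold or more, and without one or the other shSMARCA4 library the difference was -1.72 or -0.49. Among 10 measured partners and paralogs of PRDM14, 0 were called in shSMARCA4, beside 4.18% of all rows, a share at which 0 of 10 says little. CBFA2T2, the corepressor PRDM14 binds, differed by 0.33 (adjusted p = 0.343), and EZH2, the catalytic subunit of Polycomb repressive complex 2, by 0.32 (0.328).

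ZFP42 (ENSG00000179059, chr4:187995771-188005050, plus strand), also called REX1, is a relative of YY1 and a common marker of undifferentiated cells. It was 5923 and 4808 in shLUC, 6828 and 5367 in shSMARCA4 and 5367 and 4906 in shMAFK. ZFP42 stood at 5923 and 3583 in shE2F6 and at 3738 and 5420 in shKDM1A. Every knockdown overlapped the control. Its differences ran from -0.25 in shKDM1A to 0.18 in shSMARCA4, with limma adjusted p from 0.699 to 1.

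DPPA4 (ENSG00000121570, chr3:109326141-109337572, minus strand) forms a chromatin-binding pair with DPPA2. It was 17670 and 23453 in shLUC, 17670 and 27326 in shSMARCA4 and 18607 and 15759 in shMAFK. DPPA4 stood at 21308 and 25021 in shE2F6 and at 12828 and 23453 in shKDM1A. Every knockdown overlapped the control, and the differences ran from -0.25 in shMAFK to 0.18 in shE2F6 (limma adjusted p from 0.744 to 1). Its partner DPPA2 was far lower and had another pattern: 316 and 252 in shLUC, and 651 and 532 in shKDM1A (1.06, adjusted p = 0.126). In the other knockdowns DPPA2 was between 234 and 354.

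UTF1 (ENSG00000171794, chr10:133230274-133231558, plus strand) encodes a chromatin-bound cofactor that restrains the expression of differentiation genes. It had the widest range of the 10. It was 777 and 745 in shLUC, 204 and 686 in shSMARCA4 and 1124 and 480 in shMAFK. UTF1 stood at 730 and 1669 in shE2F6 and at 2842 and 1432 in shKDM1A. Both shKDM1A libraries were above both control libraries, and both shSMARCA4 libraries below. The shKDM1A difference was 1.41 (SE 0.63, 95% interval -0.02 to 2.83, unadjusted p = 0.0527, limma adjusted p = 0.441), and 1.90 or 0.91 without one or the other shKDM1A library. The shSMARCA4 difference was -1.02 (adjusted p = 0.498), but -0.15 without replicate 1, the library at 204.

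**Figure D3:**
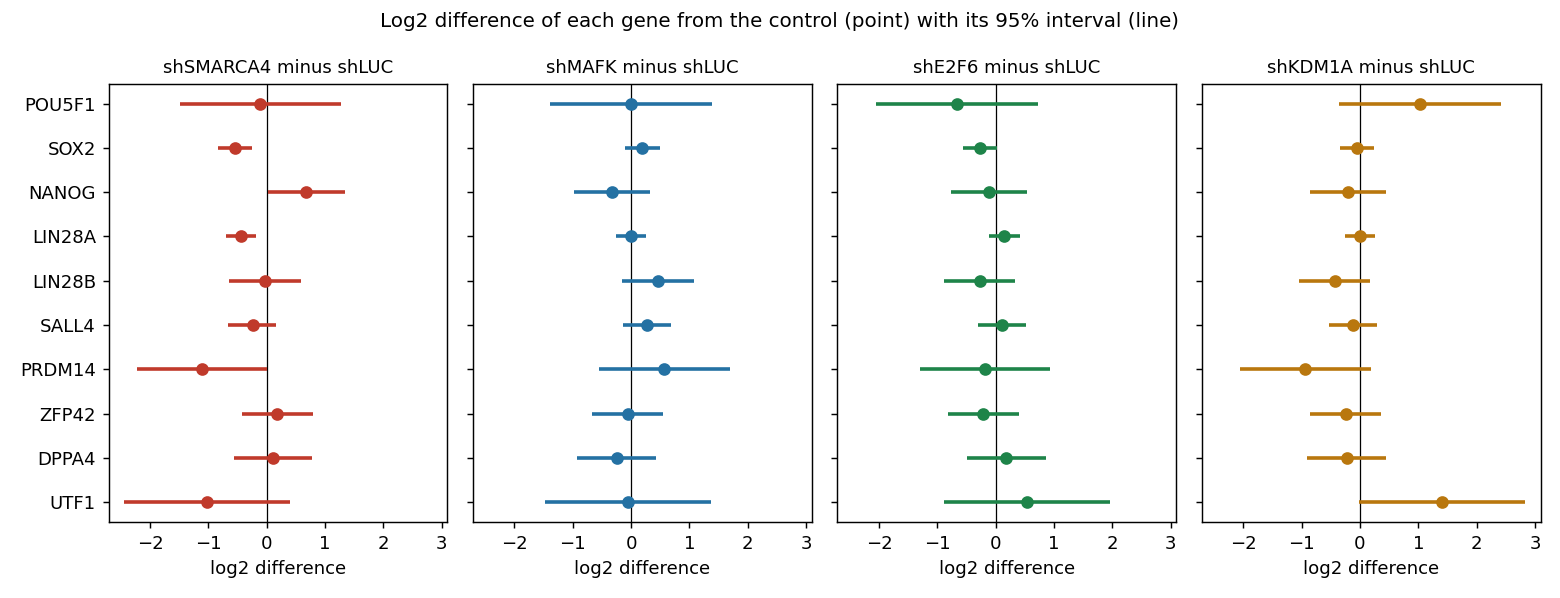
Log2 difference of each gene from shLUC (point) with its 95% interval from the limma fit (line), 1 panel per knockdown, 2 libraries per group. SOX2 and LIN28A lie below 0 and NANOG above 0 in shSMARCA4, while the intervals of POU5F1, UTF1 and PRDM14 span more than 2 log2 units in every panel.

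Counted over all 10 genes, 0 passed an adjusted p of 0.05 in any knockdown against shLUC. Of all rows, 4.18% passed after SMARCA4 knockdown, 0.0271% after KDM1A knockdown, 0.0135% after MAFK knockdown and 0% after E2F6 knockdown. At an unadjusted p under 0.05 the counts were 3 of 10 in shSMARCA4 (SOX2, LIN28A and NANOG) and 0 in each of the others. Over all rows these shares were 16.3% after SMARCA4 knockdown, 11.5% after KDM1A knockdown, 8.77% after MAFK knockdown and 5.09% after E2F6 knockdown.

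Members whose libraries lay wholly apart from the control were counted as well. In shSMARCA4 there were 6, 1 higher (NANOG) and 5 lower (SOX2, LIN28A, SALL4, PRDM14 and UTF1). Over all rows that share was 51%, with 25.6% higher and 25.4% lower. In shMAFK 4 genes lay apart, all higher (SOX2, LIN28B, SALL4 and PRDM14), against 49.1% of all rows in either direction and 23.8% higher. In shE2F6 2 genes lay apart, both lower (POU5F1 and SOX2), against 40.7% and 20.4% lower. In shKDM1A 2 genes lay apart (UTF1 higher, PRDM14 lower), against 38.8%. The median log2 difference over the 10 genes was -0.17 for shKDM1A and for shSMARCA4, -0.15 for shE2F6 and 0 for shMAFK, each beside a median over all rows within 0.02 of 0. The median size of the difference, in either direction, was 0.34 in shSMARCA4 against 0.21 over all rows, and 0.24 in shKDM1A against 0.23.

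The shSMARCA4 and shKDM1A counts changed with the setting of the fit. With a separate variance weight for each group, and also without both shKDM1A libraries or without either, SOX2 and LIN28A passed in shSMARCA4, which makes 2 of 10. Under these settings 1306 of all rows passed with the weights and 1152 to 1162 without shKDM1A libraries, in place of 618. Without shKDM1A replicate 2, POU5F1 and LIN28B passed in shKDM1A, but 3235 of all rows then passed in place of 4, on a single library. An F-test over all 5 groups called 0 of the 10 genes (5.07% of all rows). SOX2 was nearest (adjusted p = 0.0522), then LIN28A (0.0783), and 5 genes had an unadjusted p under 0.05 (21.1% of all rows), the other 3 being UTF1, PRDM14 and NANOG.

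The knockdowns were also compared with each other, in 6 contrasts and 60 tests of these genes, with p-values adjusted over all rows and the 6 contrasts together. Of the 60, 2 passed, against 2.63% of all tests. SOX2 was lower in shSMARCA4 than in shMAFK by -0.73 on the log2 scale (SE 0.13, 95% interval -1.03 to -0.44, limma adjusted p = 0.023). LIN28A was lower in shSMARCA4 than in shE2F6 by -0.59 (SE 0.12, 95% interval -0.86 to -0.33, adjusted p = 0.0336). In each pair all libraries of one group lay below all libraries of the other. Both are differences between knockdowns: in SOX2 the shMAFK libraries lay above the control and the shSMARCA4 libraries below it, and in LIN28A 1 shE2F6 library lay a step above. Over 22 alternative settings SOX2 passed in 14 and LIN28A in 13, with adjusted p from 0.00401 to 0.137 and from 0.00744 to 0.151. Leaving out any 1 library of shLUC, shSMARCA4, shMAFK or shE2F6 ended the SOX2 call. Any 1 library of shLUC, shSMARCA4 or shMAFK, or shE2F6 replicate 2 (the one at 51691), ended the LIN28A call. Such fits have fewer libraries to estimate the spread from. With all libraries kept, the LIN28A call was also lost without a mean-variance trend and with robust eBayes, while the SOX2 call held.

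At an unadjusted p under 0.05 there were 18 of the 60, over 8 genes, against 17% of all tests, and 12 of the 18 involved shSMARCA4. NANOG in shSMARCA4 stood above shMAFK by 1.01 (adjusted p = 0.117), above shKDM1A by 0.89 (0.162) and above shE2F6 by 0.80 (0.205). UTF1 in shSMARCA4 stood below shKDM1A by -2.43 on the log2 scale (limma adjusted p = 0.087). PRDM14 in shMAFK stood above shKDM1A by 1.51 (0.163), and LIN28B did so by 0.90 (0.134). These did not pass.

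Other genes of the pluripotent state were read beside the members, and beside the 4.18% of all rows that passed in shSMARCA4. Of 19 measured genes shared by pluripotent cells or typical of the primed state, 1 fell in shSMARCA4 and 0 rose. It was THY1, a surface glycoprotein also found on fibroblasts, at 2794 and 3314 against 8852 and 9056 (-1.56, limma adjusted p = 0.013). The median over the list was -0.50. TDGF1, the Nodal co-receptor, was 9056 and 7313 against 10950 and 13159 (-0.56, adjusted p = 0.115). GDF3, a TGF-beta family ligand, was 1076 and 443 against 340 and 205 (1.38, adjusted p = 0.0984). In the other knockdowns 0 genes of this list were called, beside 0.0271% of all rows in shKDM1A, 0.0135% in shMAFK and 0% in shE2F6. TRIM71, an RNA-binding protein of stem cells, was 6014 and 7682 in shSMARCA4, below both control libraries (-0.22, limma adjusted p = 0.549). It was above both control libraries (7919 and 7919) in shKDM1A (14279 and 13578), in shMAFK (12832 and 12000) and in shE2F6 (10952 and 12342). These differences were 0.81, 0.65 and 0.55, with limma adjusted p of 0.138, 0.184 and 0.774 against the same 2 controls.

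Of 15 listed naive-state genes, 6 were in the table and 0 were called in any knockdown. Of all rows, 4.18% were called in shSMARCA4, 0.0271% in shKDM1A, 0.0135% in shMAFK and 0% in shE2F6, so 0 of 6 says little about this list. In shSMARCA4 TBX3 was 99 and 141 against 43 and 42 (1.45, limma adjusted p = 0.168). TFCP2L1 was 422 and 514 against 248 and 250 (0.90, adjusted p = 0.156), and KLF5 was 199 and 213 against 113 and 94 (0.99, adjusted p = 0.296). DPPA3 lay below both control libraries (54 and 50 against 76 and 60, -0.37, adjusted p = 0.67). The summed level of the 6 was 1170 and 1379 in shSMARCA4 and between 554 and 1016 in the other 8 libraries. DPPA5 was 160 and 113 in shKDM1A against 72 and 36 (1.38, adjusted p = 0.333), and 134 and 76 in shE2F6 (0.97, adjusted p = 0.964).

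Of 16 genes of the Activin, Nodal and FGF inputs that maintain primed cells, 1 rose and 1 fell in shSMARCA4 (4.18% of all rows passed). NODAL was 2112 and 664 against 138 and 91 (3.39, limma adjusted p = 0.0133). FGFR3 was 104 and 104 against 336 and 424 (-1.85, adjusted p = 0.0259). DUSP6, an ERK phosphatase induced by FGF signalling and counted here in the shared and primed list, was 2879 and 3673 in shLUC. It was above both in shSMARCA4 (5844 and 5536, 0.81, adjusted p = 0.214). It was below both in shMAFK (1722 and 821, -1.45, 0.155), shKDM1A (1591 and 1586, -1.03, 0.326) and shE2F6 (2190 and 1780, -0.72, 0.963). None of these passed.

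Marker lists of other cell types had few measured genes. In shSMARCA4 the test called 1 of 4 mesoderm, 0 of 4 endoderm and 1 of 3 ectoderm markers, beside 4.18% of all rows. The summed mesoderm markers (4 of 12 in the table) were 11089 and 7543 in shSMARCA4, above the range of 2605 to 7552 in the other 8 libraries except that replicate 2 lay just inside it. Most of that sum was KDR, a receptor of early mesoderm, at 6746 and 6647 against 5420 and 4612 (0.42, limma adjusted p = 0.321). PDGFRA was 104 and 40 against 108 and 99 (-0.67, adjusted p = 0.487). The summed endoderm markers (4 of 12) were 5271 and 610, against 83 to 412. MIXL1, a mesendoderm homeobox factor, rose from 20 and 14 to 1809 and 132 (4.79, limma adjusted p = 0.0365). EOMES was 2430 and 724 against 14 and 34 (5.86, adjusted p = 0.151). FOXA2 was 792 and 170 against 4 and 2, and CER1 2354 and 172 against 44 and 21, neither called. CER1 was at 0 in some libraries of other knockdowns, and FOXA2 was between 0 and 4 in the other 8 libraries. Every row had a mean of at least 10 over all libraries, a level that FOXA2 reached only through shSMARCA4. Whether the absent markers were left out for low values is not known. These sums and counts are therefore not a test of the lists. Of the 3 measured of 12 ectoderm markers, ZIC1 rose (462 and 1004 against 95 and 149, 2.51, adjusted p = 0.0147), while the summed level did not stand apart (6795 and 4382 against 4121 to 10870).

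Of 12 trophoblast markers 2 were measured, and KRT7 fell from 218 and 296 to 30 and 44 in shSMARCA4 (-2.77, limma adjusted p = 0.00463). The pair summed to 86 and 80 there, against 172 to 439 elsewhere. Of 5 measured mesenchymal and fibroblast markers of 12, 4 fell in shSMARCA4, beside 4.18% of all rows that passed there. These 4 were VIM (1046 and 876 against 3429 and 3110, -1.77, adjusted p = 0.0011), COL1A1 (-2.70), S100A4 (-1.27) and THY1. THY1 is also counted in the shared and primed list. COL1A2 was not called, at 2483 and 2794 against 2740 and 3262 (-0.18, limma adjusted p = 0.927). The 5 markers summed to 6734 and 7731, against 16327 to 31308 elsewhere. The core genes summed to 122892 and 100613 in shSMARCA4 and to 118094 and 124354 in shLUC. Most of each sum was POU5F1, LIN28A and DPPA4, which lie mostly on the coarse steps, so the sums say little of the lower members. In shKDM1A the sums were 223241 and 124865, the first from the library with POU5F1 at 148866. In such bulk libraries a smaller number of pluripotent cells and less RNA per cell cannot be told apart, and the part of these marker levels in the SOX2, NANOG and LIN28A values was not tested. TBXT, SOX17, GATA6, PAX6 and SOX1 were not analysed here.

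**Figure D4:**
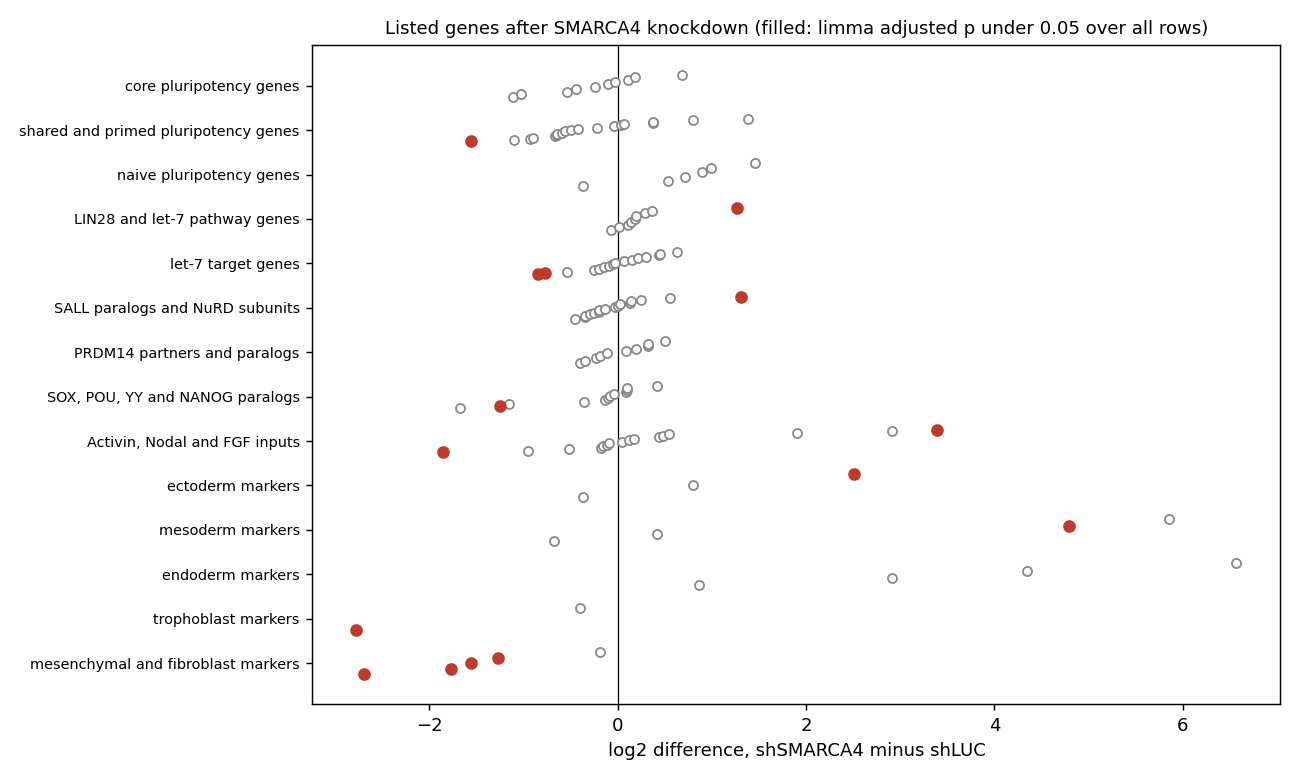
Log2 difference between shSMARCA4 and shLUC for every measured gene of the lists, 1 point per gene and 1 line per list, filled where the limma adjusted p over all rows was under 0.05. None of the 10 core genes is filled and all lie between -1.11 and 0.68, while MIXL1 (4.79) and NODAL (3.39) lie far to the right and COL1A1 (-2.70) and KRT7 (-2.77) far to the left.

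The genes whose log2 values over the 10 libraries were most like those of each member are given as a description. They were taken as the highest Pearson r among 13759 genes with a mean of at least 50, and the libraries share hairpins and one normalization. SOX2 was most like IRX2, an Iroquois homeobox gene (r = 0.987). From the highest group to the lowest, IRX2 was 1166 and 1760 in shMAFK, 501 and 728 in shLUC, 526 and 321 in shKDM1A, 151 and 182 in shE2F6, then 46 and 62 in shSMARCA4. The group means of SOX2 have the same order over a far narrower range. PRICKLE1 (0.971) and EPDR1 (0.97) were next. NANOG was most like OCIAD2 (0.941), then IL17RD (0.939), an inhibitor of FGF signalling that was 7576 and 5420 in shSMARCA4 and 1976 and 1998 in shLUC, then VAMP8 (0.938). LIN28A was most like RNF157 (0.952), CACUL1 (0.944) and ACTC1 (0.942), all lowest in both shSMARCA4 libraries.

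POU5F1 was most like PARD3 (0.976), RCC1L (0.971) and PRPF6 (0.968), each highest in the shKDM1A library in which POU5F1 stood at 148866. LIN28B was most like CFAP97 (0.968), ELL2 (0.956) and PRRT2 (0.951). SALL4 was most like EMD (0.975), SOCS4 (0.95) and RAB3B (0.95), and PRDM14 like NDUFAF2 (0.966), DYRK4 (0.955) and STIP1 (0.949). ZFP42 was most like NDUFA6 (0.961), B4GALT7 (0.948) and PHB2 (0.941), and UTF1 like SLC43A2 (0.971), KDM2B (0.954) and GMDS (0.951). Among the genes most like DPPA4 were SFPQ (0.92) and FRYL (0.918). No member was among the 3 genes most like another member.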

How the data were processed

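RNA-seq values of 10 H1 libraries (5 groups of 2) were used. The authors deposited normalized tag counts, treated here as a score: whole numbers with nearly equal totals and shared steps at the top, so neither raw counts nor depth can be had. The submitters' processing notes name STAR, STARsolo and hg38; the normalization is not given in the sources used here. Columns not mapped to a sample numbered 0. Groups and replicate numbers come from sample titles. Values were tested as log2(value + 1) with limma (version 3.58.1, R 4.3.3; linear fit, then eBayes with a prior variance that follows the mean, two-sided), all 10 libraries in 1 fit with 5 residual degrees of freedom and no filter. P-values were adjusted by Benjamini-Hochberg over all 14785 rows; an adjusted p under 0.05 is a call. Log2 differences understate changes of low genes, and p-values measure the spread between these libraries only. The script was tested on simulated data.

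The members and lists were chosen with earlier results of these data known. Named genes were all 10 members, the 4 targeted genes, paralogs that could share reads, and, per comparison, listed genes past the threshold, filled to 10 by unadjusted p, of which some are not described, and the genes most like each member, of which 1 is not reported here. TUT4, DIS3L2, SALL1, SALL2, CHD4, CBFA2T2, EZH2, TDGF1, GDF3, TBX3, TFCP2L1, KLF5, DPPA3, PDGFRA, EOMES, FOXA2, CER1 and COL1A2 fall outside this rule and were chosen after their values were seen. Same-numbered libraries of 10 pairs of groups deviated together with r over 0.1 in 2 pairs (-0.05 to 0.337), so numbers were not taken as pairs. Lengths and positions are from GENCODE 29; promoters and microRNAs from RefSeq (GRCh38.p14).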

Additional observations from a re-analysis of the deposited data

Results flagged for a closer look

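Of the 60 tests of the core genes between knockdowns, 2 found that the effects of 2 hairpins against the shared control differed. SOX2 differed by -0.734 on the log2 scale between shSMARCA4 and shMAFK (limma adjusted p = 0.023). LIN28A differed by -0.595 between shSMARCA4 and shE2F6 (adjusted p = 0.0336), on values near the top of the table, where the steps are coarse. The share of all tests that passed was 2.63%.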

How the results depend on the processing

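Besides the fit described, 23 settings were run. The number of core genes called stayed at 0 in shMAFK and in shE2F6 under every one. In shSMARCA4 it was 2 with a variance weight per group, 2 when the shKDM1A pair was left out, 1 (LIN28A) in a fit of the 2 groups compared, and 0 to 2 with 1 library left out. In shKDM1A it was 0 to 2 with 1 library left out. The F-test called 2 with such weights, 2 when the shKDM1A pair was left out, and 0 to 7 with 1 library left out, the 7 without shKDM1A replicate 2. Between knockdowns 2 became 1 (SOX2, with LIN28A lost) without a mean-variance trend and 1 (SOX2) with robust eBayes, 4 when the shKDM1A pair was left out, and 0 to 8 with 1 library left out. Listed genes beside the core genes numbered 14 in shSMARCA4 and, under settings added after seeing the data, 2 to 20 with 1 library left out. With the replicate number as a block the counts were 0 in each comparison with shLUC and 2 between knockdowns, so the block changed no call. Of 910 values of single members, 20 took the other sign, none of them called. Beyond the smaller number of libraries or rows in some settings, the cause of these moves was not tested. Read depth is unknown, which leaves the precision of the low members PRDM14 and UTF1 to 2 libraries a group.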
